A study of Triticum aestivum with 27 samples.

Results

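The 150 genes described here were expressed in spikes of the wheat varieties Baipimai and Shengsimai and low in those of Zhoumai18 at each of 3 times. They were chosen from 108061 high-confidence gene identifiers on the 21 chromosomes of bread wheat by one score. The score was the lowest of the 6 group levels of Baipimai and Shengsimai minus the highest of the 3 group levels of Zhoumai18, each level being log2(mean FPKM of 3 replicates + 1), and the 150 highest genes were taken. FPKM is the number of fragments counted on a gene, scaled for gene length and library size. RNA-seq had been run on spikes cut at the wax-ripening stage and kept warm and humid to bring on sprouting, frozen at 0, 48 and 96 h, with 3 replicates for each of 9 groups and 27 libraries in all. Baipimai is a white-grained variety resistant to pre-harvest sprouting (PHS), Shengsimai a red-grained variety that is highly resistant, and Zhoumai18 a white-grained variety that is highly susceptible. Each variety was represented by spikes of 1 variety only, so a difference between varieties covers all that sets them apart, grain colour and breeding history included. All spikes were soaked before the first freezing, so the 0 h groups are not dry controls. The number in the library names of Baipimai is that of another variety in the study's list of varieties, but their labels say Baipimai and that name is kept.

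Bread wheat carries 3 related genomes, A, B and D, so that most genes exist as homoeologous copies on the chromosomes of one group, such as 1A, 1B and 1D. Identifiers are numbered along each chromosome of the reference variety Chinese Spring, which makes their order a guide to neighbours. Gene content and gene sequence differ among wheat varieties, and reads are counted against the genes of the reference. DNA was not analysed here, so a gene that a variety lacks, a copy too different for its reads to be assigned and a gene that is not transcribed cannot be told apart in these values. In whole spikes, fewer cells of a type and less RNA per cell cannot be told apart either.

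The libraries held 45590141 to 55765523 counts. Of the gene names fixed to check the tissue, none was found under its fixed spelling, so that check could not be made as planned. Among related names in the table, Sbe2 (starch branching enzyme) ranged from 5.04 to 34.7 FPKM and Vp-1A (a seed maturation factor) from 4.29 to 29.5 FPKM over all libraries. Sbe1A (another starch branching enzyme) ranged from 0.076 to 9.50 FPKM and GluD3-3 (a seed storage glutenin) from 0.029 to 38.1 FPKM, so both were near 0 in some libraries, while RcaB (rubisco activase) did not exceed 0.021 FPKM. In Baipimai, Shengsimai and Zhoumai18, the means were 15.6, 18.2 and 22.3 FPKM for Sbe2 and 20.9, 24.5 and 12.2 FPKM for Vp-1A. They were 0.907, 0.389 and 4.935 FPKM for Sbe1A and 10.3, 1.22 and 15.3 FPKM for GluD3-3. The varieties thus differed in these levels, and what lies behind this was not tested. All of these names were picked after their values were seen.

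Every one of the 150 genes had its lowest Baipimai or Shengsimai library above its highest Zhoumai18 library. The choice of the genes on group means favours this order without requiring it in single libraries. Of the 68658 genes with at least 1 FPKM in 3 or more libraries, 2.21% had the same order. The scores ran from 1.75 to 5.80, with a median of 2.44. The median FPKM of the 150 genes was 11.3 to 12.7 in the Baipimai libraries, 11.02 to 12.2 in the Shengsimai libraries and 0.0633 to 0.175 in the Zhoumai18 libraries. Averaged over the 18 libraries of Baipimai and Shengsimai, 54 genes were below 10 FPKM, 89 were between 10 and 100 FPKM and 7 were above 100 FPKM.

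The genes were low in Zhoumai18 rather than silent. Only 19 of the 150 had 0 counts in every Zhoumai18 library, 32 had 1 to 10 counts over the 9 libraries, 30 had 11 to 100 and 69 had more than 100. The highest Zhoumai18 group mean was below 0.1 FPKM in 60 genes, from 0.1 to 1 FPKM in 50 and at 1 FPKM or more in 40, of which 7 reached 10 FPKM. The Zhoumai18 mean was below 1% of that of the other varieties in 68 genes, 1% to 10% in 71 and 10% or more in 11, the highest being 18.4%. The map of levels in all libraries shows this range, from rows without signal to rows that only dimmed.

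**Figure D1:**
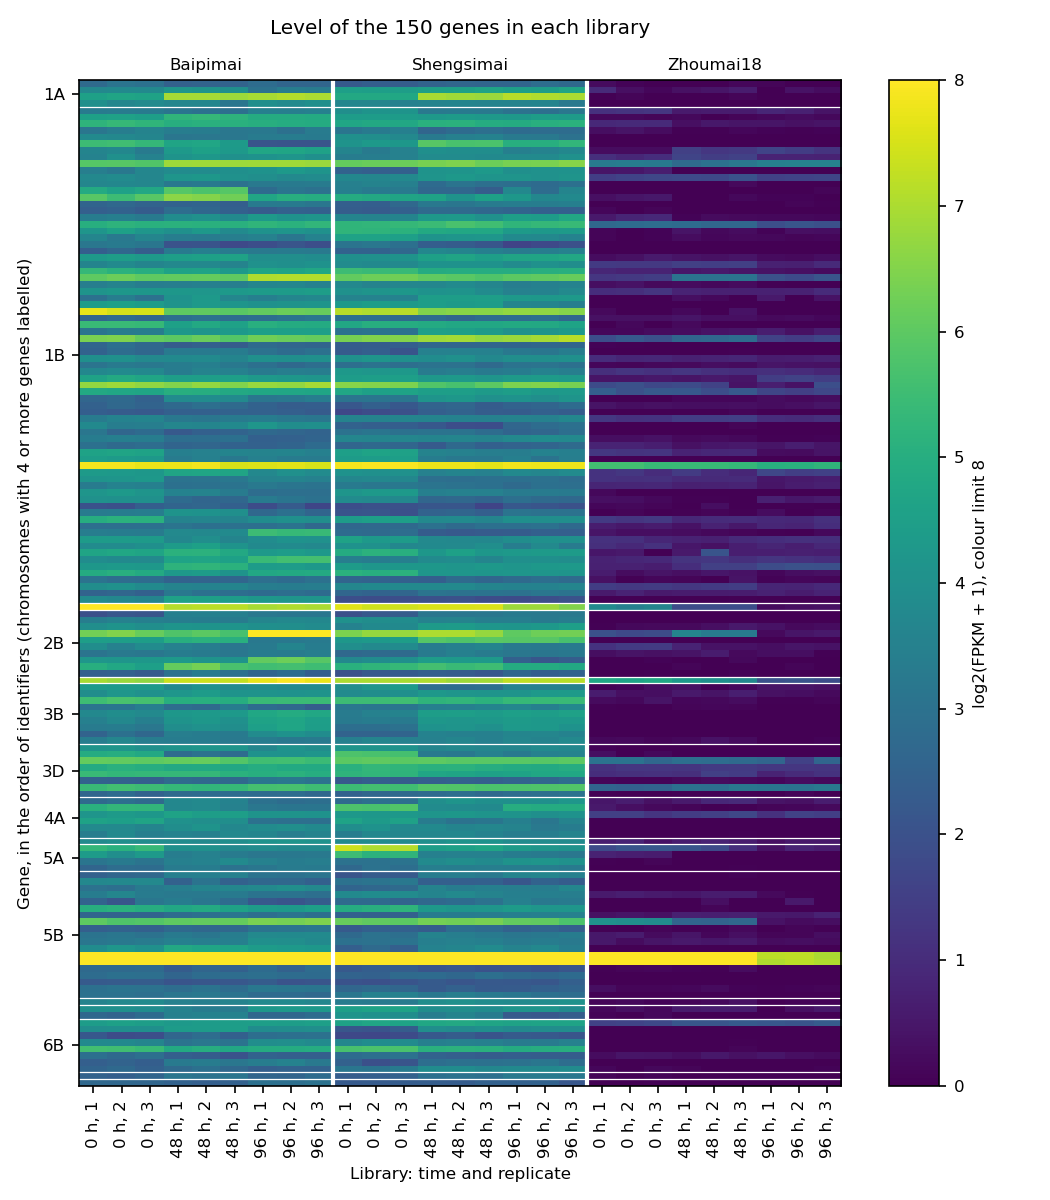
Levels of the 150 genes (rows, in the order of identifiers, with chromosomes separated by white lines) in the 27 libraries (columns, by variety, time and replicate), as log2(FPKM + 1) with the colour scale ending at 8. The Zhoumai18 columns are dark for most genes, while a few rows, such as TraesCS5B01G478100 and TraesCS5B01G478200, stay bright in all 27 libraries.

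TraesCS1B01G061900 had the highest score, 5.80. Its levels in Baipimai were 206, 176 and 183 FPKM at 0 h, 63.4, 64.6 and 60.4 FPKM at 48 h and 66.8, 73.3 and 69.6 FPKM at 96 h. In Shengsimai they were 141, 131 and 139 FPKM, then 88.7, 95.1 and 94.6 FPKM, then 104, 101 and 93.4 FPKM. In Zhoumai18 the 9 libraries held 29 counts in all, 7 of them in the first replicate at 0 h and 15 in the third at 48 h, with 0 counts in all 3 libraries at 96 h. The lowest library of the other varieties was thus far above the highest of Zhoumai18, which was 0.304 FPKM, and the ratio of the means was 1693.

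The next 4 genes by score lie on 4 different chromosomes. TraesCS6B01G242200 averaged 36.1 FPKM in Baipimai and Shengsimai, and all of its 5 Zhoumai18 counts came from 1 library at 48 h. TraesCS3B01G193500 averaged 40.6 FPKM against 0.130 FPKM, with 2 to 25 counts in each Zhoumai18 library. TraesCS2B01G483000 averaged 41.4 FPKM and had 4 counts in Zhoumai18, and TraesCS1B01G068200 averaged 29.8 FPKM and had 9. Of these, TraesCS3B01G193500 kept counts in every Zhoumai18 library, and the others were at 0 in most of them.

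The following 5 were TraesCS1A01G249700, TraesCS5B01G340100, TraesCS1B01G001100, TraesCS1B01G100100 and TraesCS1B01G008000, with scores from 4.57 down to 3.85. TraesCS5B01G340100 was between 17.1 and 35.7 FPKM in every Baipimai and Shengsimai library and had 2 counts in Zhoumai18, both in 1 library at 48 h. TraesCS1B01G008000 was between 25.8 and 39.9 FPKM in those libraries and between 0.243 and 0.950 FPKM in Zhoumai18, where it was highest at 0 h. The highest scores thus include genes nearly without reads in Zhoumai18 and genes with a low level in all 9 of its libraries.

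Genes at 0 counts in Zhoumai18 bound a fold change only from below. TraesCS1B01G060100 was at 9.60 to 22.6 FPKM in the other varieties, at least 2338-fold higher, on counts scaled to library totals, than the 3 counts over 9 libraries that 0 counts allow. TraesCS2B01G471500 was at 8.19 to 60.5 FPKM, at least 1767-fold higher, and TraesCS1B01G018100 at 3.21 to 59.4 FPKM, at least 1168-fold higher. These bounds cover counting error only.

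At the other end, some of the genes were abundant in Zhoumai18 too. TraesCS5B01G478100 averaged 8942 FPKM in Baipimai and Shengsimai, the highest mean of the 150. In Zhoumai18 it was at 1280, 1194 and 1340 FPKM at 0 h, 649, 497 and 461 FPKM at 48 h and 142, 146 and 126 FPKM at 96 h, or 131247 counts in all. Its neighbour TraesCS5B01G478200, which the table pairs with the symbol UES, averaged 2755 FPKM against 401 FPKM and fell to 131 to 143 FPKM in the Zhoumai18 libraries at 96 h. Both were thus expressed in every library, and the time course in Zhoumai18 ran downward in both. TraesCS1B01G127200 differed least in ratio among the 5 most abundant genes, with 183 to 243 FPKM in the 18 libraries of the other varieties and 32.2 to 47.2 FPKM in the 9 of Zhoumai18. The other 2 of these 5, TraesCS2A01G556400 and TraesCS2B01G415900, were at 12.8, 10.01 and 11.3 FPKM and at 2.99, 2.40 and 2.66 FPKM in Zhoumai18 at 0 h, and neither exceeded 0.472 FPKM there at 96 h.

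The limit of 150 falls within a continuous range. The last genes taken were TraesCS6B01G204200, TraesCS1B01G107000 and TraesCS1B01G117200, with scores of 1.76, 1.76 and 1.75. The first left out were TraesCS5B01G455200, TraesCS1B01G068500 and TraesCS1B01G353500, with 1.75, 1.74 and 1.74. TraesCS5B01G455200 had 3 counts in Zhoumai18 and TraesCS1B01G107000 had 2251, so the order near the limit does not follow how near to 0 a gene is.

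Chromosome 1B held 74 of the 150 genes, or 49.3%, whereas it held 4.42% of the 29345 genes with at least 1 FPKM in all 6 Baipimai and Shengsimai groups, called expressed genes here. Chromosome 5B held 19, 2B 10, 3B 9, 6B and 3D 8 each, 4A 6, and 1A and 5A 4 each. Chromosome 6A held 2, and 2A, 3A, 4B, 5D, 7A and 7B held 1 each. None was on 1D, 2D, 4D, 6D or 7D. By genome, 122 genes (81.3%) were on B, 19 (12.7%) on A and 9 (6.0%) on D, beside 33.2%, 33.1% and 33.7% of the expressed genes.

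**Figure D2:**
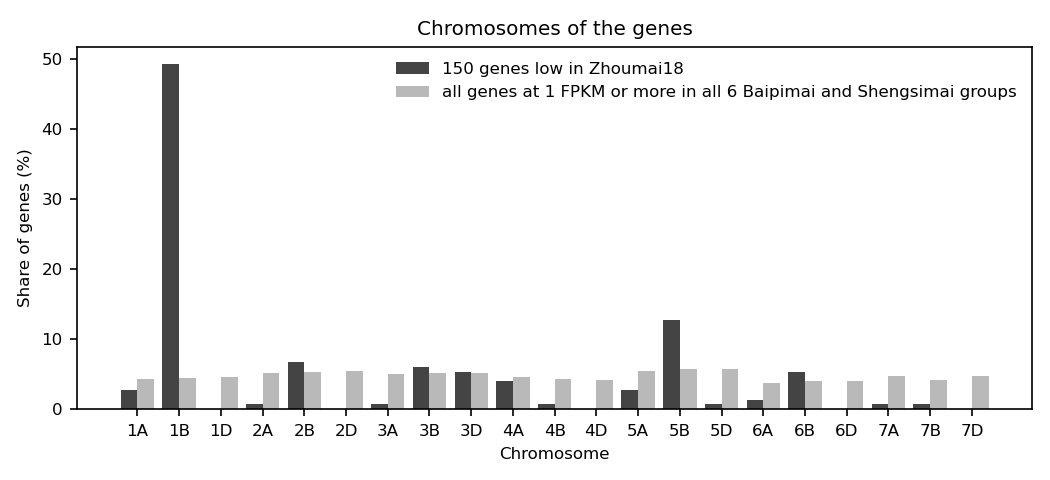
Share of genes on each chromosome (percent), for the 150 genes (dark bars) and for the 29345 expressed genes (light bars). Chromosome 1B holds 49.3% of the dark bars and 4.42% of the light ones, and 5B is the next with 12.7%.

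Of the 74 genes on 1B, 73 lay between TraesCS1B01G000900 and TraesCS1B01G150200, which is the first part of the chromosome in the order of identifiers. This stretch spans 1494 identifiers, of which 326 were expressed genes. The Zhoumai18 mean was below 0.5 of the mean of the other varieties, called reduced here, in 297 of these 326 (91.1%), beside 4.24% of all expressed genes, each mean with 0.1 FPKM added. The 253 expressed genes of the stretch that are not among the 150 showed the same, with 224 (88.5%) reduced. The median ratio over the stretch was 0.172, and 4 of its expressed genes were higher in Zhoumai18. Genes expressed mainly in Zhoumai18 could not be among the expressed genes, so this number leaves them out. One identifier of the stretch of that kind was TraesCS1B01G011900. Its means were 0.123 FPKM in Baipimai, 0.138 FPKM in Shengsimai and 1.77 FPKM in Zhoumai18. Beyond the stretch, 37 of the 972 expressed genes of 1B (3.8%) were reduced, and the shares on 1A and 1D were 2.4% and 4.1%. The 73 chosen genes thus lay in a long row of neighbours, most of which were reduced as well.

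The end of the stretch was sharp. TraesCS1B01G150500 and TraesCS1B01G150800, just after the last chosen gene, had log2 ratios of -2.12 and -2.86. The next expressed genes, TraesCS1B01G151900 and TraesCS1B01G152000, had 0.27 and 0.37, and TraesCS1B01G152100 had -1.60. After it, the 15 expressed genes up to TraesCS1B01G154800 all lay between -0.09 and 0.90. One gene near the end of the stretch, TraesCS1B01G148500, went the other way, with 42.9 FPKM in Zhoumai18 and 26.1 and 19.8 FPKM in Baipimai and Shengsimai. The last chosen gene of 1B, TraesCS1B01G444600, lay far beyond the stretch.

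**Figure D3:**
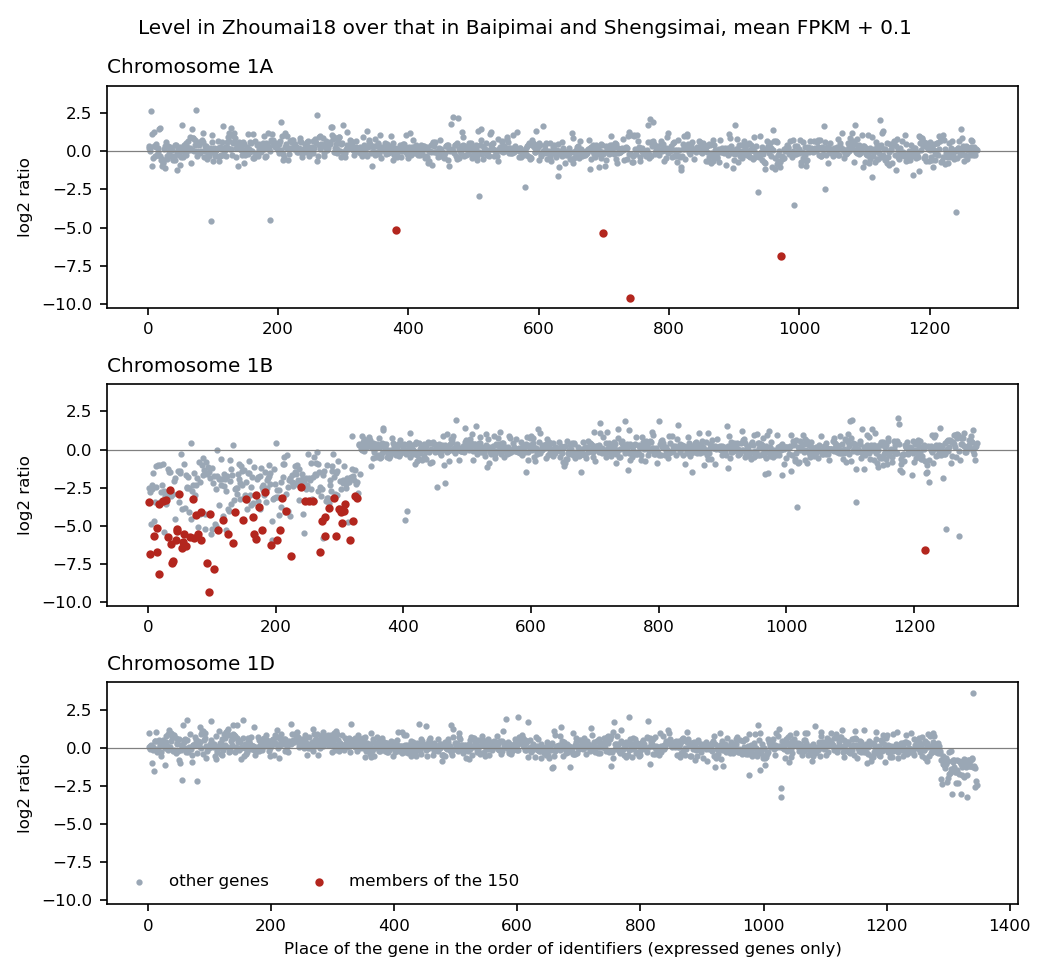
Log2 ratio of the Zhoumai18 mean to the mean of Baipimai and Shengsimai (0.1 FPKM added to each) for the expressed genes of chromosomes 1A, 1B and 1D, in the order of identifiers, with the 150 genes in red. On 1B the points lie below 0 up to about the 330th expressed gene and around 0 after it, while 1A stays around 0 throughout and 1D drops only at its end.

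The genes of the 1B stretch were less close to 0 in Zhoumai18 than the other chosen genes. The 73 genes had a median Zhoumai18 mean of 0.282 FPKM, which was 2.03% of the other varieties as a median, and 7 of them had 0 counts. The other 77 genes had a median of 0.0414 FPKM and 0.41%, and 12 of them had 0 counts. In Baipimai and Shengsimai the medians were alike, at 13.6 and 11.8 FPKM. These values chose the genes and are given as a description.

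Few of the genes carry a name. The gene name in the table was the identifier itself for all 150, and 37 (24.7%) were paired with a symbol, beside 37.7% of all tested genes. Only 2 of these 37 symbols were not locus numbers, GPI and UES. TraesCS1B01G053600 carries GPI, the usual symbol of glucose-6-phosphate isomerase, an enzyme shared by glycolysis and sugar synthesis. Its lowest, median and highest libraries were at 63.9, 68.2 and 134 FPKM in Baipimai, 54.8, 65.5 and 75.4 FPKM in Shengsimai and 1.41, 2.97 and 7.33 FPKM in Zhoumai18. Within Zhoumai18 it was at 1.41, 1.53 and 1.73 FPKM at 0 h, 7.33, 7.14 and 7.25 FPKM at 48 h and 2.97, 2.44 and 3.31 FPKM at 96 h, so the 3 groups did not overlap and the middle time was highest. No role is given here for genes that carry only a locus number.

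A pair of named genes of the 1B stretch were low in Zhoumai18 without being among the 150, and were picked for their names. TraesCS1B01G104900, paired with MAPK2A (a mitogen-activated protein kinase, of the kinases that relay signals), had a median of 11.7 FPKM in Baipimai, 11.2 FPKM in Shengsimai and 1.60 FPKM in Zhoumai18, whose highest library was at 2.66 FPKM. TraesCS1B01G126100, paired with pdil4-1 (a protein disulfide isomerase-like protein, of the enzymes that help proteins fold), had medians of 86.0, 78.2 and 23.0 FPKM. In both, the Zhoumai18 libraries lay below all 18 of the others.

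Neighbours were also shared off chromosome 1B. Taking as a run 2 or more of the genes with at most 5 other identifiers between one and the next, 54 genes fell into 23 runs, and 29 of them into 12 runs of consecutive identifiers. Chromosome 1B held 11 of the runs with 25 genes. The longest had 4 genes each: TraesCS1B01G043600 to TraesCS1B01G044500, TraesCS3B01G319700 to TraesCS3B01G320000 and TraesCS5B01G479400 to TraesCS5B01G479700, the last 2 of them without a gap. Runs of 3 were TraesCS1B01G037800 to TraesCS1B01G038000 and TraesCS5B01G454300 to TraesCS5B01G455100.

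In each of the 4 consecutive genes of 3B the FPKM of the Baipimai libraries at 48 h lay above those at 0 h and those at 96 h above those at 48 h, without overlap. TraesCS3B01G319700 was at 12.3, 14.3 and 12.5 FPKM at 0 h, 17.99, 19.2 and 18.5 FPKM at 48 h and 26.4, 29.2 and 26.6 FPKM at 96 h in Baipimai. In Shengsimai it was at 9.07, 10.4 and 10.99 FPKM, then 20.8, 21.3 and 19.97 FPKM, then 22.0, 20.8 and 22.7 FPKM. On TMM-scaled counts, TraesCS3B01G319700 and TraesCS3B01G319800 did not pass edgeR's test from 0 to 48 h in Baipimai, with log2 fold changes of 0.08 ± 0.08 and 0.17 ± 0.09 and adjusted p of 0.392 and 0.0985, and the other 2 genes did. TraesCS3B01G320000, at the other end of the run, was lower, from 4.83 to 15.8 FPKM over the 18 libraries. The 4 genes had 1, 2, 2 and 2 counts over the 9 Zhoumai18 libraries. Of the 4 consecutive genes of 5B, TraesCS5B01G479500 and TraesCS5B01G479600 share a symbol and had 0 counts in Zhoumai18, while TraesCS5B01G479400 and TraesCS5B01G479700 had 61 and 64. Genes that share a symbol can be near-identical copies between which the counting may have split reads, so single values of such pairs are uncertain, as are those of TraesCS6B01G242100 and TraesCS6B01G242200.

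The expressed genes within 5 identifiers of a chosen gene differed between 1B and elsewhere. In the 1B stretch, 115 of 142 such neighbours (81.0%) had a score above 0, that is, every Baipimai and Shengsimai group mean above every Zhoumai18 group mean. Around the other genes it was 28 of 155 (18.1%), beside 2.84% of all expressed genes outside the 150. One more stretch resembled that of 1B. At the start of 3D, TraesCS3D01G001500 to TraesCS3D01G013000 held 7 of the 150 genes, and 19 of its 21 expressed genes (90.5%) were reduced in Zhoumai18, with a median log2 ratio of -3.40. The chosen genes are low by the rule. Of the 14 expressed genes there outside the 150, 12 (85.7%) were reduced, with a median log2 ratio of -2.55. On 5B, TraesCS5B01G321600 to TraesCS5B01G351900 held 4 of the 150 genes and 29 of its 59 expressed genes (49.2%) were reduced. Outside the 150 it was 25 of 55 (45.5%). In contrast, 10 of the 150 genes lay between TraesCS5B01G451900 and TraesCS5B01G479700, yet only 2 of the other 62 expressed genes there (3.2%) were reduced. The genes of 5B thus lay partly among low neighbours and partly among neighbours near the level of the other varieties. These stretches were marked out after their values were seen.

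The same score was computed with Baipimai and with Shengsimai as the low variety. The 150 genes lowest in Baipimai had scores of 0.87 to 4.35, with 33 (22.0%) on 2A, their most frequent chromosome. The 150 lowest in Shengsimai had scores of 0.88 to 6.10, with 21 (14.0%) on 6B. No gene was in 2 of the 3 sets, as the rule requires. The genes at 0 counts in the low variety numbered 10, 24 and 19 for Baipimai, Shengsimai and Zhoumai18, so this count was not highest for Zhoumai18. Those in runs of neighbours numbered 46, 57 and 54, so these were no more frequent for Zhoumai18 than for Shengsimai. In windows of 20 expressed genes along each chromosome, at least 10 genes were reduced in Zhoumai18 in 23 of 1457 windows (1.58%), and 17 of these were on 1B. The others were 2 at the end of 1D, which held none of the 150 genes, 1 at the start of 3D and 3 on 5B. For Baipimai there were 2 such windows of 1400, both on 2A, and for Shengsimai 3 of 1477.

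**Figure D4:**
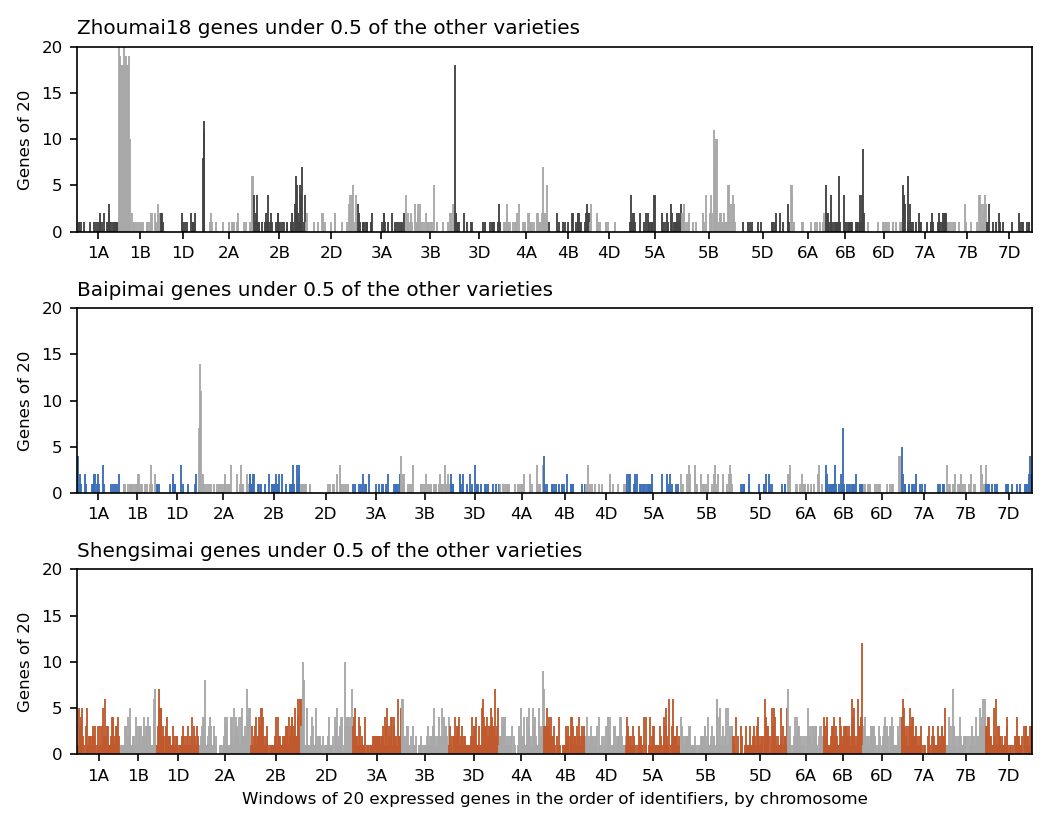
Number of genes below 0.5 of the mean of the other varieties in windows of 20 expressed genes, in the order of identifiers along the chromosomes (neighbouring chromosomes in alternating colours), for each variety as the low one. The block of tall bars on 1B stands only in the Zhoumai18 panel, where it takes 17 of the 23 windows with 10 or more genes.

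Genes that carry the same symbol elsewhere gave a view of related copies. For 13 genes of the 1B stretch the table held 21 tested genes of the same symbol on 1A or 1D. In Zhoumai18, 15 of these 21 (71.4%) were higher than in the other varieties, 1 was reduced, and the median log2 ratio was 0.53 (-1.11 to 1.16), whereas 60.4% of all tested genes were higher and their median was 0.16. With so few genes that share a chromosome group and libraries, the difference between these shares is given without a test. A shared symbol is a shared best match and does not prove homoeology, and reads of near-identical copies can be split between them by the counting.

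TraesCS1B01G100100 and the genes of its symbol show the values behind this. Its lowest, median and highest libraries were at 89.0, 103 and 121 FPKM in Baipimai, 49.8, 85.0 and 92.1 FPKM in Shengsimai and 0.298, 2.36 and 2.92 FPKM in Zhoumai18. TraesCS1A01G082500 was at 13.8, 19.9 and 22.5 FPKM in Baipimai, 7.48, 15.7 and 29.9 FPKM in Shengsimai and 19.99, 33.0 and 92.8 FPKM in Zhoumai18. TraesCS1D01G083900 had medians of 102, 73.9 and 129 FPKM. The 1B gene was thus low in Zhoumai18 while the 1A and 1D genes had their highest median there, with libraries that overlapped those of the other varieties. The abundant TraesCS1B01G127200 showed a like picture with TraesCS1A01G096500, which had medians of 212, 220 and 327 FPKM, but not with TraesCS1D01G105500, at 164, 186 and 152 FPKM. Over all 150 genes, 29 shared a symbol with another tested gene, 25 of them with a gene outside the 150. Of the 40 partner genes outside the 150, 23 (57.5%) were higher in Zhoumai18 and 5 (12.5%) reduced, beside 60.4% and 7.3% of all tested genes, and their median log2 ratio was 0.14. The reduced ones included TraesCS5A01G466400 and TraesCS5D01G479200, the partners of TraesCS5B01G478100, at -3.75 and -2.84, and TraesCS5D01G032100, the partner of TraesCS5B01G023500, at -5.65. TraesCS5D01G032100 had means of 9.58 FPKM in Baipimai, 0.278 FPKM in Shengsimai and 0.0 FPKM in Zhoumai18, so it was low in Shengsimai too.

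The score compared neither times nor Baipimai with Shengsimai, and these comparisons were tested. It took the lowest of their 6 group levels, however, so a gene near 0 in any of these groups could not be chosen, and in this respect the tests are not independent of the choice. Counts scaled by TMM were tested with edgeR's quasi-likelihood test over the 68658 genes, and genes with a Benjamini-Hochberg adjusted p under 0.05 were called differentially expressed genes (DEGs). All 150 genes entered the test, which their levels in Baipimai and Shengsimai alone ensured. From 0 to 48 h, 109 of the 150 were DEGs in Baipimai and 114 in Shengsimai, beside 72.2% and 72.1% of all tested genes, so DEGs were about as frequent as among all genes. In Baipimai 24 rose and 85 fell, beside 40.9% and 31.3% of all tested genes. In Shengsimai 22 rose and 92 fell, beside 37.6% and 34.5%. The median log2 fold change of the 150 was -0.42 in Baipimai and -0.48 in Shengsimai, and that of all tested genes 0.15 and 0.02.

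The balance of rises and falls depended on the scale. With limma on log2(FPKM + 1), 58 rose and 56 fell in Baipimai, beside 54.1% and 19.9% of all genes, and 62 rose and 55 fell in Shengsimai, beside 49.9% and 21.3%. The genes that fell were 56.7% of the 150 in Baipimai and 61.3% in Shengsimai with the scaled counts, and 37.3% and 36.7% with FPKM, in each case a larger share than among all genes. With FPKM the medians of all genes were shifted up, to 0.28 and 0.21, and those of the 150 were 0.00 and 0.02. On both scales the 150 genes lay below the median of all genes, by 0.57 and 0.50 with the scaled counts and by 0.27 and 0.19 with FPKM. The tested genes needed 1 FPKM in only 3 libraries, so they can include genes near 0 at some time. Such genes could not be among the 150, so the shares and medians here and below compare unlike sets. The levels printed here are FPKM and the fold changes are those of the scaled counts.

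From 48 to 96 h, 92 of the 150 were DEGs in Baipimai, with 66 up and 26 down, beside 55.8% of all genes, 26.3% up and 29.6% down. In Shengsimai 28 were DEGs, with 9 up and 19 down, beside 21.6% of all genes, 13.6% up and 8.05% down. With limma on log2(FPKM + 1) the split was 47 up and 49 down in Baipimai, beside 20.1% and 40.3% of all genes, and 16 up and 25 down in Shengsimai, beside 14.3% and 8.26%. The majority of rises in Baipimai was thus not there with FPKM. Rises were still a larger share there than among all genes (31.3% beside 20.1%) and falls a smaller one (32.7% beside 40.3%).

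The genes that changed most did so on either scale, as their FPKM values show. TraesCS1A01G249700 rose most from 0 to 48 h in both varieties, from 22.4, 24.6 and 23.6 FPKM to 122, 119 and 113 FPKM in Baipimai and from 27.4, 27.4 and 26.2 FPKM to 124, 114 and 111 FPKM in Shengsimai. Its log2 fold changes were 1.90 ± 0.10 (SE) and 1.59 ± 0.10, with edgeR adjusted p of 4.04e-15 and 9.91e-14. In Zhoumai18 it had 7 counts, in 1 library at 0 h and 1 at 48 h. The next riser in Baipimai was TraesCS2B01G216900, from 2.90, 3.55 and 3.32 FPKM to 9.84, 10.3 and 9.99 FPKM, a log2 fold change of 1.20 ± 0.12 with an edgeR adjusted p of 8.1e-10. In Shengsimai it was TraesCS6B01G204100, from 3.43, 3.22 and 4.07 FPKM to 14.5, 13.4 and 14.9 FPKM, a log2 fold change of 1.49 ± 0.08 with an edgeR adjusted p of 7.13e-14. Both rises were larger than the spread between replicates.

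Among the genes that fell, TraesCS3D01G001900 went from 29.1, 30.5 and 27.4 FPKM at 0 h to 6.02, 7.16 and 6.10 FPKM at 48 h in Baipimai, a log2 fold change of -2.60 ± 0.14. In Shengsimai it went from 53.2, 50.8 and 48.4 FPKM to 8.75, 8.29 and 10.5 FPKM, or -2.99 ± 0.14. TraesCS4A01G103900 fell from 33.1, 38.1 and 37.8 FPKM to 11.9, 12.7 and 10.4 FPKM in Baipimai, or -2.05 ± 0.10. In no case did the libraries of the 2 times overlap, and the edgeR adjusted p were 3.46e-14, 1.5e-15 and 4.52e-16. TraesCS5A01G018900 fell most in Shengsimai, from 168, 128 and 136 FPKM to 21.03, 22.1 and 24.3 FPKM, with a log2 fold change of -3.20 ± 0.17 and an edgeR adjusted p of 7.79e-16.

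From 48 to 96 h the varieties differed gene by gene. TraesCS2B01G415900 rose in Baipimai from 55.1, 62.4 and 49.5 FPKM to 479, 514 and 457 FPKM, a log2 fold change of 3.30 ± 0.12 with an edgeR adjusted p of 2.5e-18. TraesCS2B01G475000 rose in Baipimai from 19.1, 16.4 and 16.2 FPKM to 66.3, 74.6 and 59.1 FPKM and fell in Shengsimai from 20.3, 18.9 and 18.8 FPKM to 4.49, 3.38 and 4.10 FPKM. Its log2 fold changes were 2.13 ± 0.13 and -2.29 ± 0.15, with edgeR adjusted p of 3.38e-13 and 3.92e-12. This gene thus moved in opposite directions in the 2 resistant varieties, and it had 7 counts in Zhoumai18.

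Other genes fell late in Baipimai or rose late in Shengsimai. In Baipimai TraesCS1B01G034200 fell from 58.2, 52.7 and 58.4 FPKM to 6.01, 7.70 and 6.99 FPKM (log2 fold change -2.84 ± 0.19, edgeR adjusted p 1.24e-11). TraesCS1B01G018100 fell from 24.5, 25.6 and 19.5 FPKM to 3.28, 3.21 and 3.26 FPKM (log2 fold change -2.64 ± 0.15, edgeR adjusted p 2.77e-12). Both lie in the 1B stretch and had 1 and 0 counts in Zhoumai18. In Shengsimai TraesCS4A01G103900 rose from 13.4, 13.3 and 12.8 FPKM to 30.9, 29.0 and 29.3 FPKM, with a log2 fold change of 1.16 ± 0.10 and an edgeR adjusted p of 8.33e-10. TraesCS3B01G006400 went from 6.30, 6.16 and 6.37 FPKM to 10.7, 10.3 and 9.94 FPKM, and TraesCS1B01G060100 from 20.8, 19.4 and 20.3 FPKM to 11.4, 11.1 and 9.60 FPKM. The rises and falls named here were each without overlap between the 3 libraries before and the 3 after.

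**Figure D5:**
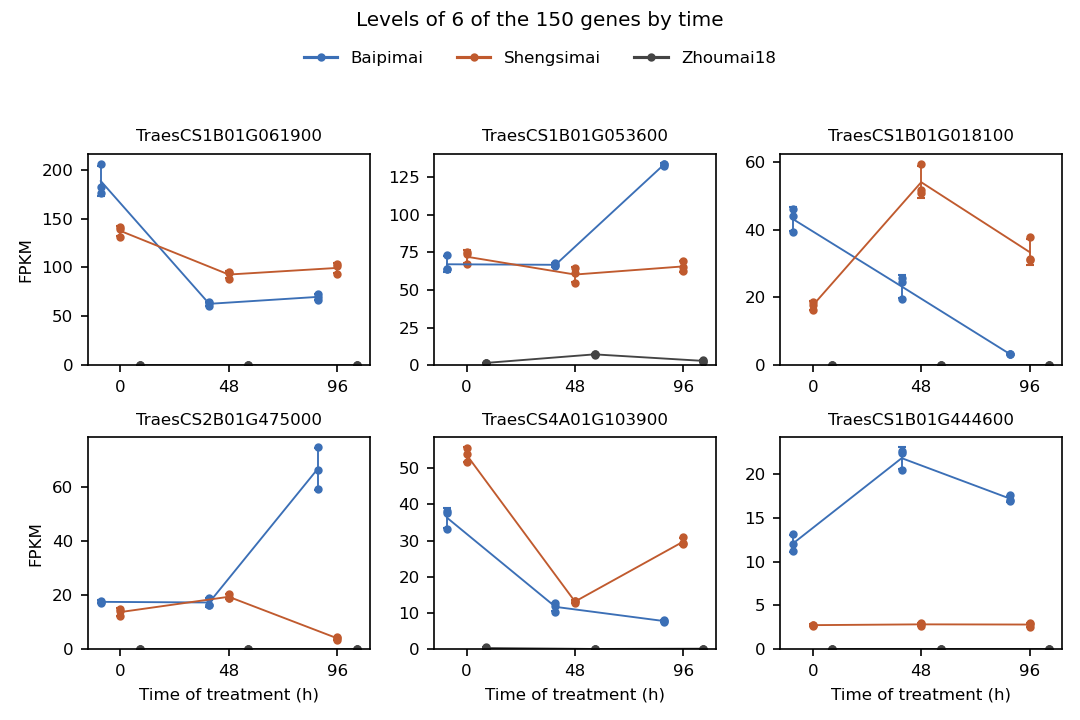
FPKM of 6 of the 150 genes at 0, 48 and 96 h. Points are libraries, lines join group means and bars are 1 SD over 3 replicates, with the varieties shifted sideways for clarity. Zhoumai18 lies near 0 in every panel, while Baipimai and Shengsimai cross in TraesCS1B01G018100 and part at 96 h in TraesCS2B01G475000.

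Baipimai and Shengsimai, the 2 varieties in which the genes were high, were compared at each time. At 0 h 73 of the 150 were DEGs, 15 higher and 58 lower in Baipimai, beside 47.7% of all genes, 24.1% higher and 23.5% lower. At 48 h 96 were DEGs, 31 higher and 65 lower, beside 61.7%, 33.4% and 28.4%. At 96 h 88 were DEGs, 55 higher and 33 lower, beside 62.7%, 31.8% and 31.0%. The share of DEGs was near that of all genes at each time. With limma on log2(FPKM + 1) the counts were 80 at 0 h, 50 higher and 30 lower, beside 45.6% of all genes, 33.3% and 12.3%. At 48 h they were 42 and 48, beside 40.1% and 21.4%, and at 96 h 57 and 43, beside 30.5% and 32.9%. The majority among the DEGs at 0 h thus reversed with the scale, but the direction beside all genes did not. At 0 h the share lower in Baipimai was larger than among all genes on both scales. The share higher was smaller with the scaled counts and the same with FPKM (33.3%). The median log2 difference of the 150 minus that of all genes was -0.165 with the scaled counts and -0.018 with FPKM.

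The genes named here had libraries of Baipimai and Shengsimai that did not overlap. TraesCS1B01G444600 was higher in Baipimai at all times, at 13.1, 12.0 and 11.2 FPKM against 2.81, 2.62 and 2.80 FPKM at 0 h and at 22.7, 22.4 and 20.5 FPKM against 2.91, 2.96 and 2.62 FPKM at 48 h. Its log2 differences at 0, 48 and 96 h were 1.90 ± 0.12, 2.80 ± 0.12 and 2.60 ± 0.12, with edgeR adjusted p of 3.87e-12, 1.03e-15 and 4.28e-15. Shengsimai stayed within 2.57 to 3.03 FPKM throughout, and Zhoumai18 had 3 counts, in 1 library. TraesCS6B01G204100 was higher in Baipimai at 0 h, at 14.4, 15.0 and 15.0 FPKM against 3.43, 3.22 and 4.07 FPKM, a log2 difference of 1.83 ± 0.08 with an edgeR adjusted p of 6.28e-15. At 48 h TraesCS1B01G034200 was higher in Baipimai, at 58.2, 52.7 and 58.4 FPKM against 5.39, 5.37 and 4.17 FPKM, a log2 difference of 3.33 ± 0.20 with an edgeR adjusted p of 5.06e-13.

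The direction was the opposite in other genes. At 0 h TraesCS5A01G018900 was lower in Baipimai, at 38.0, 33.0 and 40.3 FPKM against 168, 128 and 136 FPKM, and TraesCS6A01G391200 was at 5.34, 4.88 and 5.88 FPKM against 16.7, 15.5 and 14.3 FPKM. Their log2 differences were -2.20 ± 0.16 and -1.78 ± 0.15, with edgeR adjusted p of 4.38e-12 and 4.38e-10. At 48 h TraesCS6B01G451900 was at 5.74, 6.79 and 5.48 FPKM in Baipimai against 13.7, 13.8 and 12.1 FPKM, a log2 difference of -1.29 ± 0.18 with an edgeR adjusted p of 4.26e-07. TraesCS1B01G018100 was at 24.5, 25.6 and 19.5 FPKM at 48 h in Baipimai against 59.4, 50.7 and 51.7 FPKM, a log2 difference of -1.37 ± 0.12 with an edgeR adjusted p of 1.33e-09. Neither TraesCS6A01G391200 nor TraesCS6B01G451900 exceeded 0.125 FPKM in a Zhoumai18 library, whereas TraesCS5A01G018900 reached 3.55 FPKM there.

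At 96 h TraesCS2B01G475000 was higher in Baipimai by 4.10 ± 0.15 on the log2 scale and TraesCS1B01G142000 by 3.33 ± 0.12, at 44.1, 40.4 and 41.4 FPKM against 4.03, 4.50 and 4.35 FPKM. TraesCS1B01G018100 was again lower in Baipimai, at 3.28, 3.21 and 3.26 FPKM against 31.3, 31.0 and 37.7 FPKM, a log2 difference of -3.30 ± 0.15. TraesCS2B01G471500 was lower too, at 8.31, 8.19 and 8.93 FPKM against 59.1, 59.9 and 49.8 FPKM, or -2.68 ± 0.10. The edgeR adjusted p of these 4 genes were 2.72e-18, 3.67e-19, 1.65e-14 and 7.63e-16. Genes at 0 counts in Zhoumai18, such as the last 2, thus differed among the resistant varieties as well.

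The change from 0 to 96 h itself differed between Baipimai and Shengsimai in 87 of the 150 genes by edgeR's quasi-likelihood test of the interaction, beside 48.2% of all genes. In 66 of them the change was more positive in Baipimai and in 21 in Shengsimai, beside 23.5% and 24.7% of all genes. With limma on log2(FPKM + 1) the change differed in 84 of the 150, beside 57.4% of all genes, so the larger share was not there with FPKM. The split was 39 and 45, beside 21.1% and 36.4%. TraesCS1B01G018100 had the most negative difference of the genes named here, -4.34 ± 0.19 on the log2 scale with an edgeR adjusted p of 5.19e-14, since it fell in Baipimai and was higher at 96 h than at 0 h in Shengsimai. TraesCS2B01G475000 had the most positive one, 3.99 ± 0.19 with an edgeR adjusted p of 7.58e-15.

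Levels within Zhoumai18 also moved with time where counts allowed it to be seen. Of the 69 genes with more than 100 counts there, 34 (49.3%) had all 3 libraries at 96 h below all 3 at 0 h in FPKM and 16 (23.2%) had them above. Among the 66144 tested genes with more than 100 counts the shares were 32.9% and 51.9%. The score subtracted the highest Zhoumai18 group level, so a rise there at any time lowered it. These shares are thus not independent of the choice and are given as a description. The 43 genes with 1 to 30 counts had 71 counts together in the first replicate at 0 h and 86 in the third at 48 h, beside 17 to 48 in the other 7 libraries, so these 2 libraries were the highest, and the source of these counts was not tested.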

How the data were processed

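RNA-seq of 27 spike libraries (Baipimai, Shengsimai and Zhoumai18 at 0, 48 and 96 h, 3 replicates each, grouped by their labels) was re-analysed. The table that the authors deposited gives, for 153699 genes, raw counts and FPKM, the latter adjusted for the length of the gene and the size of the library. Sequencing and counting were done by a company, and the aligner, the counter and the genome build are not given in the sources used here. 1 malformed line was left out. A table of resistance classes in words was not used.

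The 150 genes were chosen on FPKM as described with the results, and the members and lists were chosen with earlier results of these data known. Their low level in Zhoumai18 was not tested. Counts with TMM factors of 0.718 to 1.159 were fitted with edgeR 4.0.16 (R 4.3.3) in one model of 9 group means over the genes with at least 1 FPKM in 3 or more libraries. P-values of the quasi-likelihood test were adjusted by the Benjamini-Hochberg method over the 68658 genes of each comparison, with a threshold of 0.05. The SE printed after ± is an approximation, the size of the log2 fold change divided by the square root of the test's F statistic. The test was run on simulated data before use.

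Genes were named by rule: the 10 highest scores, 3 genes on each side of the limit, at most 2 DEGs up and 2 down per comparison (no overlap between libraries, at least 10 FPKM in the higher group), the 5 highest means, the 3 with most Zhoumai18 counts, the longest runs, genes with a name, and the highest score of each chromosome with 5 or more genes. Genes of the stretches and partner genes fall outside this rule and were picked with their values in view. The alternatives were DESeq2 1.42.0, limma 3.58.1 on log2 FPKM with a pseudocount of 1 or 0.1, no filter, a block for the replicate number, a fit of the compared groups only, a minimum 2-fold change, leaving out each library, and, for the choice of genes, a pseudocount of 0.1, the TPM scale, medians, 75 or 300 genes, and gaps of 0 or 20 within a run. Replicates are separate spikes of one variety, so p-values measure the spread between spikes. No pair of replicates agreed within sampling noise (chi-square per degree of freedom 2.95 to 14.7).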

Additional observations from a re-analysis of the deposited data

Results flagged for a closer look

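The change from 0 to 96 h differed between Baipimai and Shengsimai in 87 of the 150 genes by edgeR's quasi-likelihood test of the interaction, beside 48.2% of all tested genes. With limma on log2(FPKM + 1) it differed in 84 of the 150 genes, beside 57.4% of all tested genes. With edgeR the share among the 150 was thus above that of all tested genes, and with limma on log2(FPKM + 1) it was not. The result is listed because the 2 resistant varieties changed differently under the same treatment. Leaving out 1 library at a time gave 77 to 86 genes with edgeR.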

How the results depend on the processing

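The counts of DEGs among the 150 genes kept within 1.5 times of their main values under no filter, the compared groups alone and limma with either pseudocount. A minimum 2-fold change left 29 (Baipimai) and 44 (Shengsimai) DEGs from 0 to 48 h, 14 and 3 from 48 to 96 h, 15, 11 and 18 between the varieties at 0, 48 and 96 h, and 27 for the interaction. DESeq2 gave 45 DEGs from 48 to 96 h in Shengsimai, where edgeR gave 28. Leaving out 1 library gave 101 to 106, 106 to 110, 77 to 86, 22 to 27, 61 to 69, 85 to 91, 78 to 88 and 77 to 86 DEGs in the same order. The replicate numbers were not used as pairs in the main fit. The deviations of same-numbered libraries correlated at -0.185 to 0.255 (median -0.023, 5 of 33 above 0.1). Most thus shared little, which does not show how the spikes were numbered or handled. The replicate block gave 110, 113, 91, 31, 73, 95, 88 and 88 DEGs.

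Chromosome 1B held more of the genes than any other chromosome under every alternative choice. A pseudocount of 0.1 shared 107 of the 150 genes and raised those with 0 counts in Zhoumai18 to 38. Taking 75 genes gave 33 on 1B, 23 in runs and 12 at 0 counts, and taking 300 gave 156, 167 and 31. Gaps of 0 and 20 put 29 and 100 genes in runs. The TPM scale and medians shared 144 genes each. Leaving out 1 library gave 73 to 75 genes on 1B, 52 to 58 in runs and 18 to 26 at 0 counts. At this depth 0 counts over 9 libraries do not show absence of a transcript.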
